A study of Mus musculus with 16 samples.

Results

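The pyruvate dehydrogenase complex, its kinases and its phosphatases were followed as 10 genes on 16 microarrays of mouse brown adipose tissue (BAT) and gonadal white adipose tissue (gWAT). The members were 4 subunits (Pdha1, Pdhb, Dlat and Dld), 4 kinases (Pdk1, Pdk2, Pdk3 and Pdk4) and 2 phosphatases (Pdp1 and Pdp2), out of 22911 gene symbols with a probe. They were found by matching the RefSeq accession of each probe to the member symbols and synonyms, which gave 16 probes, 1 for each of 6 members and several for Dlat, Pdk1, Pdp1 and Pdp2. The brightest probe of a gene stood for it, and each value was the log2 signal relative to the 75th percentile of that array, so that values compare arrays for 1 probe and do not rank different genes. The threshold for a call was an adjusted p of 0.05 in limma after Benjamini-Hochberg adjustment over all genes tested.

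The complex sits in the mitochondrial matrix and turns pyruvate into acetyl-CoA, which joins glycolysis to the tricarboxylic acid cycle and to fatty acid synthesis. Its kinases phosphorylate the alpha subunit and switch the complex off, and its phosphatases remove the phosphate and switch it on again. In brown fat the complex supplies fuel for heat production, while Pdk4 is known as a kinase of the fasted, fat-burning state.

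The mice were males of strain C57BL/6NCrSlc. The KO groups were adipose tissue-specific Pgam1 knockout mice, made with Adipoq-Cre (a recombinase under the adiponectin promoter, active in adipocytes) and floxed Pgam1, and Pgam1 encodes a glycolytic phosphoglycerate mutase. The WT groups were littermate controls, which per the study's methods carried floxed Pgam1 without the recombinase. There were 4 arrays in each of BAT WT, BAT KO, gWAT WT and gWAT KO, from mice of 16 weeks except replicate 4 of both KO groups at 14 weeks. The labels did not say which BAT and gWAT arrays came from the same mouse, nor whether tissue was pooled, so p-values measure the spread between these samples.

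Pgam1 itself was read first because it checks the genotype labels. In BAT it was 7.94, 7.93, 8.07 and 7.82 on the WT arrays and 6.20, 6.13, 6.03 and 6.43 on the KO arrays, lower in KO by a log2 difference of -1.74 (exact permutation test, two-sided, p = 0.0286, the smallest p that 4 against 4 arrays allow). In gWAT it went the other way, at 5.07, 5.15, 5.67 and 5.56 on WT arrays and 6.50, 6.42, 6.38 and 5.95 on the arrays labelled KO, a log2 difference of 0.95 (exact permutation p = 0.0286). Every gWAT direction below is therefore that of the arrays labelled KO, whose Pgam1 signal goes against the label. Each array had 56605 probes of which at least 49.997% and at most 62.2% were well above background, and 0 saturated spots. The arrays lay on 3 slides, the first with BAT WT replicates 1 to 3, the second with BAT WT replicate 4, all BAT KO and gWAT WT replicates 1 to 3, and the third with gWAT WT replicate 4 and all gWAT KO arrays.

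These are whole tissues, so fewer cells of a type and less RNA per cell cannot be told apart. The summed signal of 6 adipocyte markers (in multiples of the 75th percentile) was 2589 to 2847 in BAT WT and 903 to 1246 in BAT KO, and 6 of 6 fell. In the same BAT arrays 8 macrophage markers summed to 27.8 to 40.0 in WT and 93.8 to 139.8 in KO (7 of 8 rose), and 5 fibroblast markers to 117.1 to 163.4 and 212.9 to 307.2 (5 of 5 rose). The 8 brown adipocyte markers, which include Ucp1, summed to 4330 to 4660 in BAT WT, 1448 to 2364 in BAT KO, 27.5 to 65.5 in gWAT WT and 138.3 to 353.3 in gWAT KO, where 5 of 6 tested rose, and Ucp1 was not well above background on any gWAT WT array. In gWAT the adipocyte list summed to 1873 to 2998 in WT and 1765 to 2331 in arrays labelled KO, with 1 of 6 markers lower and 5 not past the threshold, and macrophage markers to 62.4 to 85.0 and 66.9 to 201.9, with 1 of 8 higher. Skeletal muscle markers reached a sum of 163.0 within BAT KO against 1.15 to 1.98 in BAT WT, and Myh4, a fast muscle myosin, stood at 5.02 and 2.80 on BAT KO replicates 1 and 3 and at or below -4.94 on the other BAT arrays. In gWAT that list summed to 4.70 to 26.9 in WT and 31.3 to 59.4 in KO. Ckm, Myh1 and Myh4 were not well above background on any gWAT KO array. Acta1 alone was at 1.33 to 4.56 in gWAT WT and 4.88 to 5.85 in gWAT KO (difference 2.20, limma adjusted p = 0.0503). Of the remaining lists, endothelial markers had 0 of 5 past the threshold by limma in either depot (0 at an unadjusted p under 0.05), and 2 of 3 tested lymphocyte markers rose in BAT KO while 0 of 3 passed in gWAT (0 unadjusted). White adipocyte markers, 5 in all, had 3 higher and 1 lower in BAT KO and 3 lower in gWAT KO, 1 of 5 fibroblast markers was lower in gWAT KO, 3 of 7 tested muscle markers rose in BAT KO, and no epididymis marker was well above background in every array of a group. Single gWAT arrays still carried epididymis transcripts. Lcn8, Adam7 and Cst11 stood at -0.85, 0.03 and -0.0021 on WT replicate 1 and at -0.23, -0.74 and -0.28 on KO replicate 3. Lcn5 and Crisp1 were at or below -5.29 on both of these arrays. On KO replicate 2 Lcn5 alone was high, at -0.05, with Lcn8 at -6.23, Crisp1 at -6.59, Adam7 at -6.46 and Cst11 at -6.41. The 5 markers stood at or below -2.51 on the other gWAT arrays. They summed to 0.0655 to 2.60 in gWAT WT and 0.332 to 2.32 in gWAT KO. The part that these shifts had in the member results was not tested.

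Upstream windows of 5 members are shown because Pdk4, Pdk1 and Pdk2 had wide changes, Pdp2 had probes that disagreed and Pdhb stood apart from the other subunits in BAT. Each is the 250 bases before the annotated start, read 5′ to 3′ on the gene's strand from RefSeq (GRCm38.p6), in lower case, with capitals on the letters of any searched motif. The searched motifs, on both strands, were the PPAR-type repeat (AGGTCA, any base, AGGTCA), TCAAGGTCA (ERR type), GTAAACA (FOXO type), ACGTG (hypoxia core), CACGTG (E-box, which holds the hypoxia core), CCAAT and GGGCGG (GC box).
Pdk4, chr6:5496279-5496528, minus strand: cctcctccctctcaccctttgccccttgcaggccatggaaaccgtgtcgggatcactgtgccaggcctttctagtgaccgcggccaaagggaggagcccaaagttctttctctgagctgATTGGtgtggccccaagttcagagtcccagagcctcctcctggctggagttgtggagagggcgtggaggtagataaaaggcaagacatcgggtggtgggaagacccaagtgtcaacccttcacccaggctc
Pdk1, chr2:71872974-71873223, plus strand: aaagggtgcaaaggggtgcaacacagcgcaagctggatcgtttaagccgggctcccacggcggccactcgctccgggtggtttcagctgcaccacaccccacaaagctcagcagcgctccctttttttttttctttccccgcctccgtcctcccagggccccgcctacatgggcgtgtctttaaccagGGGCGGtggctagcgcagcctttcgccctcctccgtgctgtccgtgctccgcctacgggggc
Pdk2, chr11:95041372-95041621, minus strand: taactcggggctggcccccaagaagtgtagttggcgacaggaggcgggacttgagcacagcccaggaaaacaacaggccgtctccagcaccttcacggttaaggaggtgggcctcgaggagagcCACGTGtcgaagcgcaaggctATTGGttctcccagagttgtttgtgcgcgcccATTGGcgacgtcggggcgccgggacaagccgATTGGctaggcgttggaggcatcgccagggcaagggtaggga
Pdp2, chr8:104591222-104591471, plus strand: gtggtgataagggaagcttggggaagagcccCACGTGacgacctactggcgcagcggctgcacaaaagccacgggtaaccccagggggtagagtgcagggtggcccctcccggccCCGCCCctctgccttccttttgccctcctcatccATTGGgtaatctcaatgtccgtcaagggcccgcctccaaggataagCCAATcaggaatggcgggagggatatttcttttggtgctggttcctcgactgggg
Pdhb, chr14:8172993-8173242, minus strand: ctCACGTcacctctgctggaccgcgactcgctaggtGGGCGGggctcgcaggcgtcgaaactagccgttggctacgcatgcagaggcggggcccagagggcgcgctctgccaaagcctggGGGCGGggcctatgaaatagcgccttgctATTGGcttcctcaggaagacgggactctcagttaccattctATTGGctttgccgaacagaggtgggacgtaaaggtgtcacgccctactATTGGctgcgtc
RefSeq windows were at hand for 9 of the 10 members, 11 windows in all since Pdk1 and Pdk2 have several starts, and Pdp1 is named only. The PPAR, ERR and FOXO letters were in 0 of the 11 windows, against 0.0335%, 0.387% and 3.17% of all 32851 windows of that length. CCAAT was in windows of 6 members (33.8% of all windows), with 3 copies each upstream of Pdhb and Pdk2, and the GC box in windows of 5 members (32.7%). Upstream of Pdk2 and Pdp2 lay an E-box (6.02%), and the hypoxia core was in windows of 4 members (16.6%), of which Pdk1 was not one. These matches describe the letters in the windows and no more.

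In BAT, 9 of 10 members passed the threshold between genotypes, where 61.5% of all 14280 genes tested did. Of these, 7 were lower in KO (34.0% of all genes) and 2, Pdk3 and Pdp1, were higher (27.5% of all genes). Pdk3 was well above background on every array in BAT KO only, so it was tested through the group where it was high. The BAT groups did not overlap for those 9, against 57.1% of all genes. In gWAT 6 of 10 passed, where 17.8% of 14149 genes did (from 7.58% without KO replicate 1 to 22.3% without KO replicate 4 when 1 array was left out, with 8.35% without WT replicate 2, 11.1% without WT replicate 3, 9.05% without KO replicate 2 and 8.08% without KO replicate 3), and all 6 were higher in the arrays labelled KO (9.99% of all genes were, and 7.85% were lower). The gWAT groups did not overlap for 5 of them, against 24.2% of all genes, and Dld was the one that overlapped. The median difference of the members was -0.89 in BAT beside -0.08 over all genes, and 0.90 in gWAT beside 0.05 over all genes. Among all called genes 44.8% were higher in BAT KO and 56% in gWAT KO, and these shares rest on the scaling, at 79.0% and 95.6% when arrays were scaled to the spike-in probes, 17.7% in BAT when scaled to Actb and Rplp0, and 71.0% in gWAT with median centring. The plot of signals by array shows most members in opposite steps in the 2 depots.

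**Figure D1:**
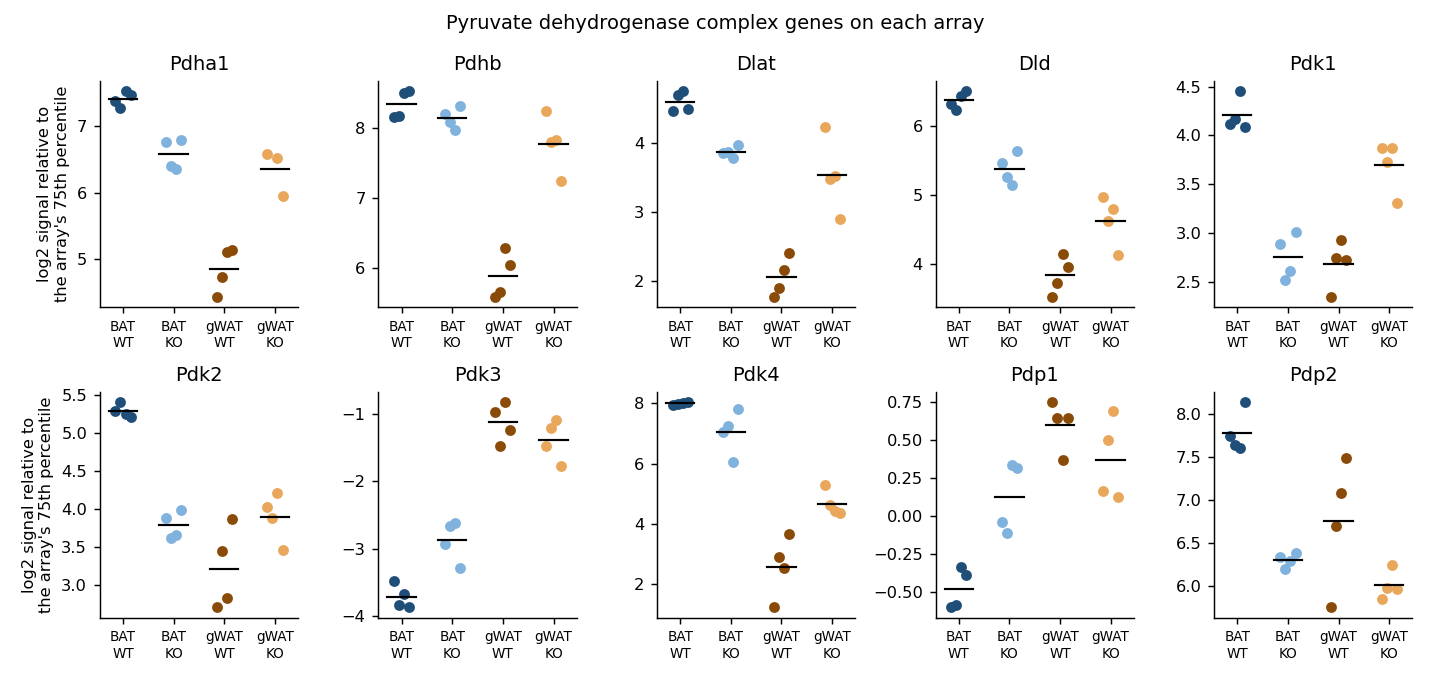
Log2 signal relative to the 75th percentile of the array (y axis, own scale in each panel) for the 10 members in the 4 groups (x axis), with a point for each array in order of replicate number and a line at the group mean. Pdha1, Dlat and Dld were highest in BAT WT and lowest in gWAT WT, while Pdk3 was lowest in BAT WT; Pdha1 has 3 gWAT KO points.

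Pdha1 encodes the alpha subunit of the pyruvate dehydrogenase enzyme, the one the kinases phosphorylate. In BAT its log2 signal was 7.39, 7.28, 7.53 and 7.48 on the WT arrays and 6.77, 6.41, 6.35 and 6.79 on the KO arrays. All BAT KO arrays lay below all BAT WT arrays, and the difference was -0.84 (SE 0.13, limma adjusted p = 0.000620), or 0.559 of the WT level, and -0.32 (adjusted p = 0.0726) with spike-in scaling. In gWAT it was 4.44, 4.74, 5.11 and 5.14 on WT arrays and 6.58, 6.52 and 5.96 on KO replicates 1, 3 and 4. The spot of gWAT KO replicate 2 was marked irregular and left out, and with it that array read 5.53, still above every WT array. The gWAT difference over the remaining 7 arrays was 1.5 (SE 0.24, limma adjusted p = 0.00832), 2.82 times the WT level.

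Pdhb, the beta subunit of the same enzyme, behaved differently in BAT. Its BAT values of 8.17, 8.19, 8.50 and 8.53 in WT and 8.20, 8.09, 7.97 and 8.32 in KO overlapped. The difference of -0.20 (SE 0.13) did not pass (limma adjusted p = 0.202), and its direction depended on the scaling. Pdhb was higher in BAT KO with quantile normalization (0.40, limma adjusted p = 0.0071) and with normexp and quantile normalization (0.49, adjusted p = 0.00359). With spike-in scaling the difference was 0.32 (adjusted p = 0.0731). Scaled to Actb and Rplp0, Pdhb was lower in BAT KO (-0.79, adjusted p = 0.00146). In gWAT the WT arrays read 5.59, 5.65, 6.28 and 6.04 and the arrays labelled KO 8.25, 7.80, 7.83 and 7.24. These groups were well apart, and the difference of 1.89 (SE 0.24, limma adjusted p = 0.00296) was 3.71 times the WT level, larger in size than that of 98.5% of the genes tested in gWAT.

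Dlat encodes the acetyltransferase core of the complex. Its BAT signal was 4.47, 4.70, 4.75 and 4.49 in WT and 3.85, 3.87, 3.79 and 3.98 in KO. The KO arrays were tightly grouped below the WT arrays (-0.73, SE 0.10, limma adjusted p = 0.000349; -0.21 and adjusted p = 0.145 with spike-in scaling). In gWAT it was 1.77, 1.91, 2.16 and 2.40 in WT and 4.23, 3.48, 3.53 and 2.90 in the arrays labelled KO, a difference of 1.47 (SE 0.27, limma adjusted p = 0.0111) with KO replicate 4, from the younger mouse, closest to WT. The other Dlat probe changed by -0.82 in BAT and 1.69 in gWAT, the same directions.

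Dld, the dihydrolipoamide dehydrogenase that the complex shares with other 2-oxoacid dehydrogenases, was 6.33, 6.23, 6.45 and 6.51 in BAT WT. In BAT KO it was 5.46, 5.26, 5.15 and 5.64. That is a fall to 0.499 of the WT level without overlap (-1.0, SE 0.13, limma adjusted p = 0.000209). The gWAT values were 3.53, 3.72, 4.14 and 3.95 in WT and 4.97, 4.63, 4.80 and 4.13 in the arrays labelled KO, so KO replicate 4 fell inside the WT range. The difference of 0.79 (SE 0.21) passed narrowly (limma adjusted p = 0.0348) and the call was lost when any of gWAT WT replicates 1, 2 or 4 or KO replicates 1, 2 or 3 was left out (adjusted p 0.0554 to 0.0941).

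Pdk1, a kinase of the complex known to be induced in low oxygen, read 4.11, 4.17, 4.45 and 4.09 in BAT WT. In BAT KO it read 2.88, 2.52, 2.61 and 3.0. The fall to 0.365 of the WT level (-1.45, SE 0.14, limma adjusted p = 5.04e-05) was shared by its 3 other probes, at -1.62, -1.36 and -1.33. In gWAT it was 2.34, 2.74, 2.93 and 2.72 in WT and 3.87, 3.72, 3.87 and 3.3 in the arrays labelled KO, without overlap (1.01, SE 0.18, limma adjusted p = 0.00991). There the other probes gave 1.06, 0.51 and -0.05, so 1 of the 4 did not share the direction.

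Pdk2, the kinase found in most tissues, fell in BAT KO by about as much as Pdk1 and Pdp2. It was 5.29, 5.40, 5.24 and 5.21 in BAT WT and 3.88, 3.62, 3.66 and 3.98 in BAT KO (-1.5, SE 0.11, limma adjusted p = 1.66e-05), or 0.354 of the WT level. In gWAT the WT arrays were split, with 2.71 and 2.83 on replicates 1 and 3 and 3.44 and 3.87 on replicates 2 and 4, and the arrays labelled KO read 4.03, 3.88, 4.2 and 3.47. The difference of 0.68 (SE 0.28) did not pass (limma adjusted p = 0.119). Within the third slide, where gWAT WT replicate 4 lies beside the KO arrays, it was 0.02, without that replicate it was 0.90 (adjusted p = 0.0466), and with spike-in scaling it was 1.14 (adjusted p = 0.00415).

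Pdk3, a kinase isoform with a narrow tissue range, had a dim probe in BAT and moved opposite to the other kinases. It was -3.47, -3.84, -3.66 and -3.87 in BAT WT, where 3 of 4 arrays were well above background, and -2.93, -2.67, -2.61 and -3.29 in BAT KO, where 4 of 4 were. The KO arrays were all higher (0.83, SE 0.17, limma adjusted p = 0.00248), 1.78 times the WT level, and the call was lost when arrays were scaled to Actb and Rplp0 (0.24). Pdk3 passed the filter in BAT only through the KO group, where it was high. This call and the size of the difference thus rest on a dim WT signal. In gWAT it was -0.98, -1.48, -0.83 and -1.24 in WT and -1.48, -1.21, -1.09 and -1.77 in the arrays labelled KO. Those ranges overlapped (-0.26, SE 0.20, limma adjusted p = 0.389), and under spike-in scaling the difference was 0.20.

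Pdk4 had the widest spread of any member. In BAT WT it was nearly constant at 7.93, 7.98, 8.02 and 8.04, and in BAT KO it was 7.06, 7.23, 6.06 and 7.81. All KO arrays were below WT (-0.95, SE 0.31, limma adjusted p = 0.0270), but replicate 4 by little and replicate 3 by much. The call depended on the arrays used. Without BAT KO replicates 1 and 3, which carry muscle transcripts, the difference was -0.47 (adjusted p = 0.0636), and it was also lost without BAT WT replicate 2, 3 or 4 or BAT KO replicate 1 (adjusted p 0.0522 to 0.0559), with the study's t-test (0.0647), with quantile normalization (-0.51) and with spike-in scaling (-0.43). The 4 gWAT WT arrays ran from 1.24 on replicate 1 through 2.91 and 2.54 to 3.66 on replicate 4, while the arrays labelled KO read 5.30, 4.62, 4.44 and 4.37. That difference of 2.09 (SE 0.46, limma adjusted p = 0.0198) was 4.27 times the WT level and larger than for 98.9% of genes, was 1.02 within the third slide, and was not called without KO replicate 1 (1.89, adjusted p = 0.0615), with the study's t-test (adjusted p = 0.0596) or with the replicate number as a block (adjusted p = 0.0572).

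Pdp1, a phosphatase that reactivates the complex, was higher in BAT KO. Its BAT values were -0.60, -0.59, -0.33 and -0.39 in WT and -0.04, -0.11, 0.33 and 0.31 in KO. The groups did not overlap (0.60, SE 0.14, limma adjusted p = 0.00460), but scaled to Actb and Rplp0 the difference was 0.01. In gWAT it was 0.75, 0.64, 0.37 and 0.64 in WT and 0.16, 0.50, 0.69 and 0.13 in the arrays labelled KO, which overlap (-0.23, SE 0.16, limma adjusted p = 0.350; 0.23 under spike-in scaling). The other Pdp1 probe agreed in BAT (0.51, adjusted p = 0.0102) and gave 0.12 in gWAT (adjusted p = 0.652).

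Pdp2, the phosphatase regarded as responsive to insulin, had 2 probes that told different stories in gWAT. The brightest probe read 7.75, 7.64, 7.60 and 8.14 in BAT WT and 6.34, 6.20, 6.29 and 6.38 in BAT KO. All BAT KO arrays were lower (-1.48, SE 0.13, limma adjusted p = 3.46e-05), and the second probe gave -1.69 (adjusted p = 0.000139). In gWAT the brightest probe spread widely in WT, at 5.75, 6.70, 7.09 and 7.49, against 5.85, 5.98, 6.25 and 5.96 in the arrays labelled KO (-0.75, SE 0.33, limma adjusted p = 0.146), and without WT replicate 1 the difference was -1.08 (adjusted p = 0.0170), as it was with normexp and quantile normalization (adjusted p = 0.0236). The second probe read 0.69, 1.37, 1.60 and 1.66 in gWAT WT and 1.93, 1.47, 1.57 and 1.18 in the arrays labelled KO, a difference of 0.21 (adjusted p = 0.589).

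The brightest Pdp2 probe was also unlike the other member probes in its company. Its profile over the 16 arrays, centred on its mean, lay within a root mean square difference of 0.1 of 34 other probes, which carry 25 different gene symbols, among 24369 probes compared. The nearest, for Zcchc9, was 0.036 away, and Ephb3 and Nrp2 followed at 0.038 and 0.042. Only 0.706% of probes had that many probes so near. Of the other 15 member probes, 13 had 0 such neighbours and 2 of the Pdk1 probes had 1 each, which was the other of the pair. The second Pdp2 probe had 0. What the brightest Pdp2 probe binds was not tested, so the second probe is given beside it in each comparison.

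**Figure D2:**
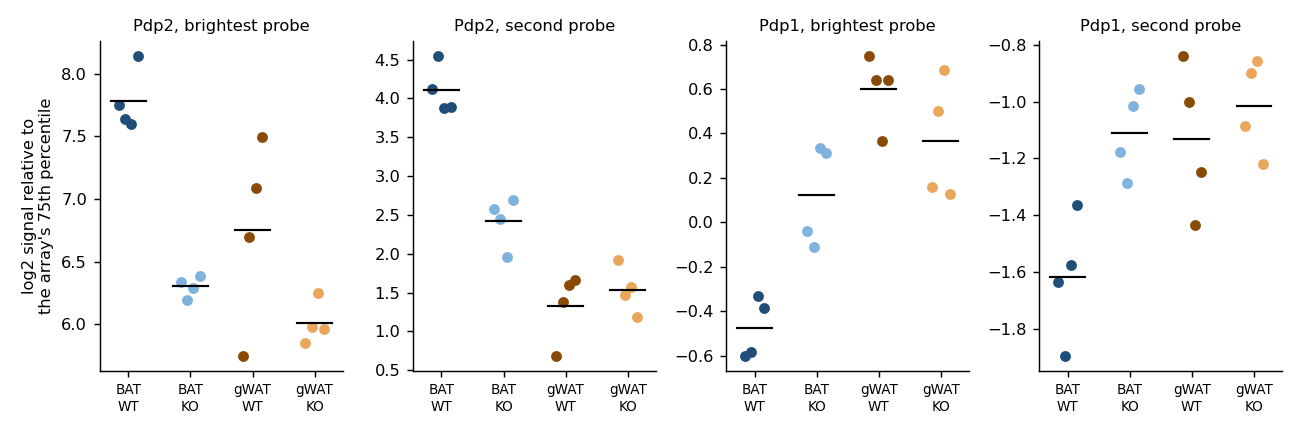
Log2 signal relative to the 75th percentile of the array (y axis, own scale in each panel) for both probes of Pdp2 and both of Pdp1 in the 4 groups, with a point for each array and a line at the group mean. In BAT the probes of a gene step the same way, while in gWAT the Pdp2 probes differ by -0.75 and 0.21 between the genotype labels.

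The slides and the arrays used bear on the gWAT counts. With slide as a fixed block, which leaves gWAT WT replicate 4 alone to set against the KO arrays, 0 of the 6 gWAT calls remained, as 1.30% of all genes were called by limma there (5 of 10 members had an unadjusted p under 0.05), while the within-slide differences of the 6 members ran from 0.68 for Dld to 1.74 for Pdhb. In BAT that block leaves BAT WT replicate 4 alone to set against the KO arrays. The calls of Pdk4 (-1.0) and Pdp1 (0.51) were lost there, and the within-slide differences ran from -1.84 for Pdp2 to 0.99 for Pdk3. With slide as a random block 9 members were called in BAT (58.0% of all genes) and 6 in gWAT (17.0%). A further fit left out the 3 gWAT arrays with any epididymis marker above -1, which on KO replicate 2 was Lcn5 alone. Without them, which leaves 3 WT and 2 KO arrays, 0 of 10 members were called in gWAT by limma (1.58% of all genes were). In that fit 6 had an unadjusted p under 0.05, and the 6 members called with all arrays were at 0.61 for Dld to 1.80 for Pdk4.

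**Figure D3:**
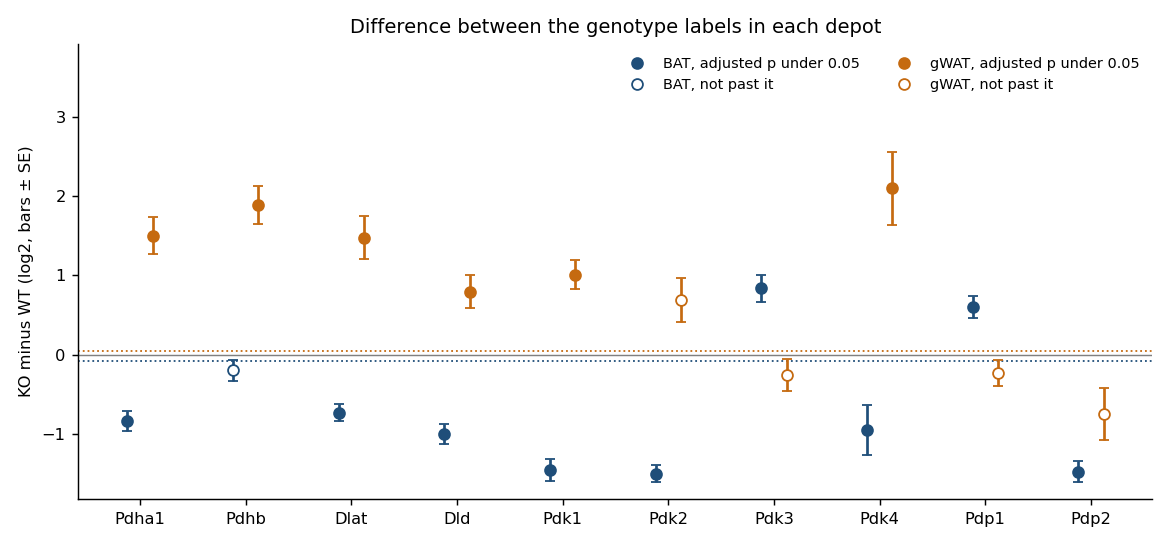
Difference between the arrays labelled KO and WT (y axis, log2) for each member (x axis) in BAT and gWAT, with bars of ± SE, filled points for an adjusted p under 0.05, and dotted lines at the median of all genes in each depot. Subunits and Pdk1, Pdk2 and Pdk4 lie below 0 in BAT and above 0 in gWAT, and Pdhb in BAT is the open point near 0.

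Whether the genotype difference itself differed between the depots was tested with the interaction term over all 16 arrays. It passed for 9 of 10 members, where 48.3% of 14820 genes did, with 7 positive (27.4% of all genes) and 2 negative (21.0%). The gWAT difference exceeded the BAT difference by 2.34 for Pdha1, 2.09 for Pdhb, 2.21 for Dlat and 1.80 for Dld (SE 0.25 to 0.30). Among the kinases it was 2.46 for Pdk1 (SE 0.23, limma adjusted p = 5.91e-06), 2.18 for Pdk2 and 3.05 for Pdk4, and it ran the other way for Pdk3 at -1.09 (limma adjusted p = 0.00391). Pdp1 was at -0.83 (limma adjusted p = 0.00507), and -0.39 with its second probe (adjusted p = 0.138). For Pdp2 the term was 0.73 and did not pass with the brightest probe (limma adjusted p = 0.126), and 1.90 with the second probe (adjusted p = 0.000397). With slide as a fixed block, BAT WT replicate 4 and gWAT WT replicate 4 are the only WT arrays beside the KO arrays of their depot. The term was then -1.15 for Pdk3, 2.02 for Pdk4 and -0.78 for Pdp1, all of which lost their calls. Scaled to Actb and Rplp0, which raised the share of positive terms among all called genes from 56.6% to 83.7%, the term was -0.56 for Pdk3 (adjusted p = 0.0756), -0.30 for Pdp1 (adjusted p = 0.297) and 1.26 for the brightest Pdp2 probe (adjusted p = 0.00452), and without gWAT WT replicate 4 that of the same probe was 0.98 (adjusted p = 0.0259).

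The depots were then compared within each genotype label, with the same arrays as above. In WT all 10 members passed, where 64.7% of 14304 genes did, with 8 higher in BAT (35.4% of all genes) and 2 lower (29.3%), and their groups did not overlap in any member (60.8% of all genes). By their brightest probes the 4 subunits were higher in BAT by 2.56 for Pdha1, 2.46 for Pdhb, 2.54 for Dlat and 2.54 for Dld (SE 0.15 to 0.18), or 5.49 to 5.91 times the gWAT level, while the second Dlat probe differed by 3.43 (adjusted p = 1.50e-06). Pdk4 had the widest gap, at 5.41 (SE 0.43, limma adjusted p = 1.34e-05), 42.4 times the gWAT level, while Pdk1 was 1.52 and Pdk2 2.07 higher. Pdk3 was lower in BAT by a log2 difference of -2.58 (SE 0.17, limma adjusted p = 4.64e-06) and Pdp1 by -1.08, or by -0.49 with its second probe (adjusted p = 0.0312). In this comparison Pdk3 passed the filter only through gWAT, where it was high, and the size of its difference rests on a dim BAT signal. Pdp2 was 1.03 higher (limma adjusted p = 0.0267) with the brightest probe, not called without BAT WT replicate 1 or 4 or gWAT WT replicate 2 (adjusted p 0.0504 to 0.0675), and 2.78 higher with the second probe. With quantile normalization the brightest probe differed by 0.20 (adjusted p = 0.544). Of all called genes 54.8% were higher in BAT, against 70.9% when scaled to Actb and Rplp0 and 43.3% with spike-in scaling. Within the second slide, BAT WT replicate 4 set against the 3 gWAT WT arrays gave 2.54 to 2.72 for the subunits and 5.81 for Pdk4.

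Between the depots of the arrays labelled KO, 4 of 10 members passed, where 46.1% of 14449 genes did, with 2 higher in BAT (23.4% of all genes) and 2 lower (22.7%), and the same 4 had groups that did not overlap (43.1%). Dld was 0.75 higher in BAT (SE 0.20, limma adjusted p = 0.0136; 0.82 and adjusted p = 0.0507 without the BAT KO arrays with muscle transcripts, 0.83 and adjusted p = 0.0605 without the gWAT arrays with epididymis transcripts), and Pdk4 was 2.36 higher (SE 0.36, limma adjusted p = 0.000975). Pdk1 was lower in BAT at -0.94 (SE 0.17, limma adjusted p = 0.00234) where it had been higher in WT, and Pdk3 was lower at -1.48 (SE 0.20, limma adjusted p = 0.000501). The other subunits differed by 0.23 (SE 0.20) for Pdha1, 0.37 (SE 0.20) for Pdhb and 0.34 (SE 0.24) for Dlat, none past the threshold, and Pdha1 was at -0.0053 when scaled to Actb and Rplp0. Without gWAT KO replicate 1, Pdhb was at 0.52 (adjusted p = 0.0429) and Dlat at 0.57 (adjusted p = 0.0282), both called. The second Dlat probe was 0.92 higher in BAT (adjusted p = 0.00803) and the second Pdp2 probe 0.88 (adjusted p = 0.00785), where the brightest gave 0.29 (adjusted p = 0.0681), or 0.37 without gWAT KO replicate 3 (adjusted p = 0.0366). Of all called genes 50.8% were higher in BAT, against 34.2% with spike-in scaling and 30.9% when scaled to Actb and Rplp0. Pdk2 was at -0.11 (SE 0.17; 0.04 without the gWAT arrays with epididymis transcripts) and Pdp1 at -0.24 (SE 0.17). All BAT KO arrays were on the second slide and all gWAT KO arrays on the third, so slide and depot cannot be told apart here.

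**Figure D4:**
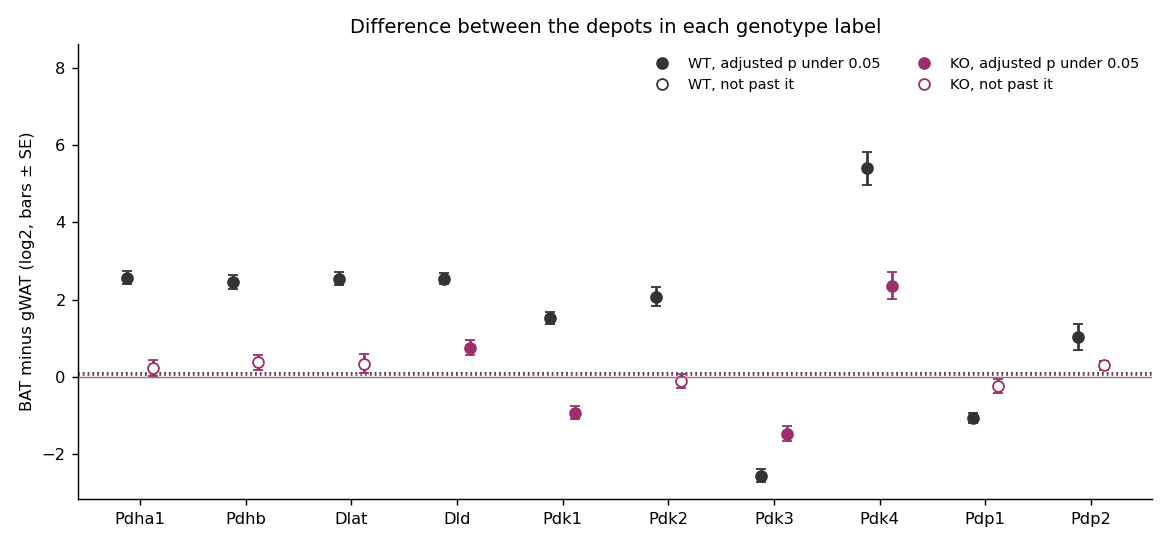
BAT minus gWAT (y axis, log2) for each member (x axis) in the arrays labelled WT and KO, with bars of ± SE, filled points for an adjusted p under 0.05, and dotted lines at the median of all genes. Each gene is drawn by its brightest probe, by which the 4 subunits lie between 2.46 and 2.56 in WT and between 0.23 and 0.75 in KO, and Pdk4 is the highest point in both.

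Ordered by mean signal, Pdha1, Dlat and Dld ran BAT WT, BAT KO, gWAT KO and gWAT WT from high to low, and so did Pdhb and Pdk4. Neighbours overlapped between BAT KO and gWAT KO for Pdha1, Pdhb and Dlat, between BAT WT and BAT KO for Pdhb, and between gWAT KO and gWAT WT for Dld, while for Pdk4 no neighbours overlapped. By their brightest probes Pdk1 and Pdk2 had gWAT KO above BAT KO, with a gap of 0.94 for Pdk1 and an overlap for Pdk2. Another Pdk1 probe had BAT KO above gWAT KO, by 0.03. BAT KO and gWAT WT overlapped for the brightest probes of both genes. Pdk3 and Pdp1 ran in the reverse order from gWAT WT down to BAT WT, with the gWAT groups overlapping for both and gWAT KO and BAT KO for Pdp1. Pdp2 was the exception, with gWAT WT above BAT KO by its brightest probe, where gWAT WT overlapped BAT KO and BAT KO overlapped gWAT KO. By its second probe Pdp2 ran from BAT WT (mean 4.11) through BAT KO (2.42) and gWAT KO (1.54) to gWAT WT (1.33), the order of the subunits, with the gWAT groups overlapping.

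A ratio within an array does not depend on the constant by which the array is scaled, so each regulator was also set against the mean of the 4 subunits on the same array, every gene centred on its own 16-array mean. This is a description over members and carries no test. In BAT the kinases Pdk1 and Pdk2 were lower relative to the subunits in KO than in WT, by -0.76 and -0.81, with no overlap. Pdk1 lay at -0.39 to -0.09 in BAT WT and at -1.12 to -0.91 in BAT KO. Pdk3 and Pdp1 were higher relative to the subunits in BAT KO, by 1.53 and 1.29, and Pdp1 was at -1.74 to -1.69 on all BAT WT arrays and at -0.66 to -0.03 on BAT KO arrays. Pdk4 differed by -0.26, with overlapping groups.

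In gWAT all regulators but Pdk4 were lower relative to the mean of the subunits in the arrays labelled KO. Pdk1 differed by -0.40, Pdk3 by -1.67, Pdp1 by -1.64 and the brightest Pdp2 probe by -2.15, all without overlap, and Pdk2 by -0.72 with overlap. With second probes it was -1.20 for Pdp2 and -1.29 for Pdp1 without overlap, and -0.34 for Pdk1 with overlap, and in BAT the second probes kept the signs. Pdk1, which by itself was higher there, thus differed by less than the mean of the subunits did, though by more (1.01) than Dld (0.79). Pdk4 differed by 0.69, with WT arrays at -2.56 to -0.69 and KO arrays at -1.20 to -0.66, which overlap. With Dlat alone in place of the 4 subunits, the 12 differences kept their signs and moved by less than the spread between arrays. Dlat is 1 of the 4 and differed by nearly as much as their mean, so this swap could hardly change a sign. The signs do depend on the subunit chosen. Pdk1 in gWAT differed by more than Dld, as given above. In BAT Pdk4 fell by less (-0.951) than Dld (-1.002). Set against Dld alone, both would change sign.

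**Figure D5:**
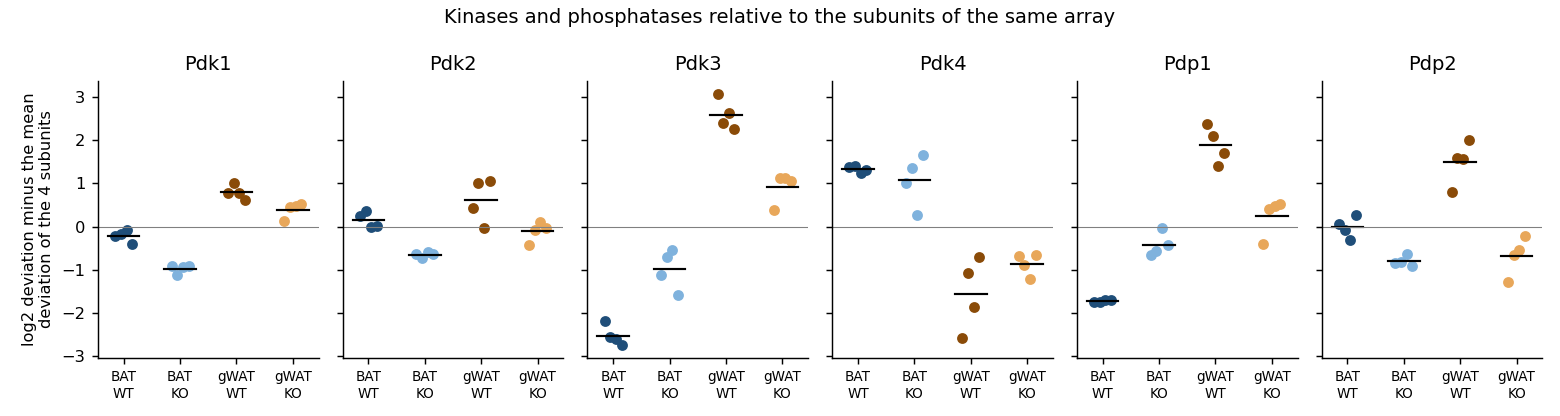
Deviation of each kinase and phosphatase from its 16-array mean minus the mean deviation of the 4 subunits on the same array (y axis, log2), by group (x axis), with a point for each array and a line at the group mean. Pdk1 and Pdk2 step down in BAT KO, Pdk3 and Pdp1 step up in BAT KO and down in gWAT KO, and Pdk4 overlaps between genotypes in both depots.

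Other genes of the pathway were read from lists, beside the shares over all genes of 34.0% lower and 27.5% higher in BAT and 7.85% lower and 9.99% higher in gWAT. The complex also holds Pdhx, which tethers Dld to the core, and Pdpr, a regulator of the phosphatase. Pdhx fell in BAT KO by a log2 difference of -0.54 (SE 0.10, limma adjusted p = 0.00183) and Pdpr by -1.13 (SE 0.11, limma adjusted p = 5.58e-05), and in gWAT they were at 0.75 and 0.18, where neither passed (limma, 1 of 2 at an unadjusted p under 0.05). Of 8 genes that supply or use pyruvate and its products, 7 were lower in BAT KO and 7 higher in the gWAT arrays labelled KO. Slc25a1, the mitochondrial citrate carrier, was at -1.5 in BAT and 2.03 in gWAT, and Mpc2, a subunit of the mitochondrial pyruvate carrier, was at -1.37 and 1.26. Acly, which splits citrate in the cytosol, rose by 2.80 in gWAT and was at 0.48 in BAT, not past the threshold. Ldha, a lactate dehydrogenase subunit, was at 0.33 in gWAT and was the member of that list not called there.

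Among the related dehydrogenase complexes, 8 of 8 genes tested were lower in BAT KO, led by Bckdha of the branched-chain complex at -1.68 and Ogdh of the 2-oxoglutarate complex at -1.35. In gWAT 2 of the 8 were higher, Bckdk at 0.82 and Bckdhb at 0.71, and Dhtkd1 was lower at -0.95. Ogdh (0.41), Dlst (0.42) and Bckdha (0.11) did not pass there, and neither did Dbt (-0.70, limma adjusted p = 0.0512) or Ppm1k (-0.09). Of 7 genes tested for lipoate and thiamine supply, 4 were lower and 1 higher in BAT KO, the thiamine transporter Slc19a2 at 1.51, and 0 passed in gWAT by limma (3 at an unadjusted p under 0.05), with differences from -0.33 to 0.79.

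Factors known to act on kinase genes and their other targets were read the same way. Of 12 factors, 9 were lower and 1 (Hif1a, 0.33) higher in BAT KO, with Ppara at -2.14, Foxo1 at -1.95 and Ppargc1b at -1.94, and 0 of 12 passed in gWAT by limma (4 at an unadjusted p under 0.05), where they ranged from -0.55 to 0.57. Of 12 targets of fatty acid sensing and fasting, 6 were lower and 3 higher in BAT KO, and 6 were higher in the gWAT arrays labelled KO. Cpt1b, which admits fatty acids to mitochondria, was at -1.70 in BAT and 4.23 in gWAT. The hormone Fgf21 was higher in the KO arrays of both depots, by 6.86 and 4.15. Its WT means were dim, at -4.86 in BAT and -3.56 in gWAT, and neither WT group was well above background on every array. Fgf21 thus passed the filter only through the KO groups where it was high, and the size of these differences rests on that dim signal. Of 10 hypoxia targets, 5 were lower and 2 higher in BAT KO, a total near the 61.5% of all genes called there. The largest falls in BAT were those of Egln3 (-2.95), Ankrd37 (-2.42) and Bnip3 (-2.39), while Slc2a1 (0.88) and Ndrg1 (0.84) were higher. In gWAT Egln3 rose by 2.12 while Bnip3 (-0.99) and Ndrg1 (-0.87) were lower.

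By likeness of profile over the 16 arrays, as the root mean square difference of centred log2 values among 12383 genes, the 6 pairs of subunits lay 0.196 (Dlat and Pdha1, the closest pair of members) to 0.50 (Dld and Pdhb) apart, and the last is farther than Pdk1 and Pdk2 (0.439) or Dld and Pdk2 (0.463), and Pdk3 and Pdk4 were 3.22 apart, the farthest. The genes most like Dld were Acsf3 (0.101), Ndufv2 (0.116) and Ndufb6 (0.120). Those most like Pdha1, over 15 arrays, were Trmt2b (0.184), Eno1 (0.185) and Pgk1 (0.189), and the nearest to Pdhb was Gpi1 (0.158), followed by 3000002C10Rik and Gm8709. Nearest to Dlat were Ptges2 (0.139), Pdha1 (0.196) and 2310061I04Rik (0.200). Among the kinases, Dhrs1 (0.135), Thrsp (0.184) and 4931406C07Rik (0.196) were nearest to Pdk1, and Pex6 (0.181), Acad10 (0.191) and Hemk1 (0.203) to Pdk2. Ptpn13 (0.223), Mov10 (0.235) and Ddr1 (0.236) were nearest to Pdk3, and Cox8b (0.536), a brown fat cytochrome oxidase subunit, Kctd1 (0.660) and Igsf21 (0.660) to Pdk4. For Pdp1 they were Hdgfl3 (0.157), Klhl36 (0.166) and Plpp2 (0.177).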

How the data were processed

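Cy3-labelled RNA of each sample was hybridised to a 1-colour Agilent mouse array. The deposited scanner files hold spot intensity made by the authors with Agilent Feature Extraction 10.7.1.1, and the deposited table of the series holds intensity divided by each array's 75th percentile, without log2. From the scanner files, irregular spots were left out, repeat spots were averaged per probe, and the log2 75th percentile was subtracted from log2 processed intensity. Irregular marks, background marks and saturation marks came from the deposited flags. Of 35886 probes with a RefSeq accession, 91.9% matched a symbol in a GRCm38.p6 gene table, and 23611 probes had none. A gene was tested if, in at least 1 of the groups compared, its brightest probe cleared the background mark on every array. Groups were compared with limma 3.58.1 (lmFit, eBayes) in R 4.3.3, with Benjamini-Hochberg adjustment over all genes tested, and the interaction over all 16 arrays. The fit was tested on simulated data. The number of arrays limits the precision.

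All 10 members, Pgam1, Pdhx and Pdpr are named, with up to 3 genes per list and comparison that had the largest change past the threshold, and the 3 genes most like each member. The members and lists were chosen with earlier results of these data known. Genes named outside this rule (Ogdh, Dlst, Bckdha, Dbt and Ppm1k in gWAT, Hif1a, Ldha, Acly, Slc2a1 and Ndrg1 in BAT) and the neighbours of the Pdp2 probe were chosen after their values were seen. Sequences came from RefSeq. Alternatives covered scaling, background, filter, probe, slide, replicate block, test and leaving out arrays. Some were added after seeing the data, each as a fit of its own. They were the second probe of a member, leaving out BAT KO replicates 1 and 3, and leaving out the gWAT arrays with an epididymis marker above -1.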

Additional observations from a re-analysis of the deposited data

Results flagged for a closer look

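The genotype difference differed between gWAT and BAT, by the interaction term, for 9 of 10 members, where 48.3% of 14820 genes passed. It was 2.34 for Pdha1, 2.09 for Pdhb, 2.21 for Dlat, 1.80 for Dld, 2.46 for Pdk1, 2.18 for Pdk2, -1.09 for Pdk3, 3.05 for Pdk4 and -0.83 for Pdp1 (gWAT difference minus BAT difference, log2). The direction of the gWAT term is that of arrays labelled KO whose Pgam1 signal goes against the label. Among 43 groups of 4 arrays examined over the members and Pgam1, 0 held an array set apart from the rest by Dixon's test.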

How the results depend on the processing

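Over 1309 values of 62 member results, 1222 kept their direction and side of the threshold, 55 lost and 21 gained a call, and 11 changed sign. Many of these values could hardly change. The 6 members with 1 probe kept it under the probe alternatives, and the deposited table has the same scaling as the main values. The results relative to the subunits have no threshold. The count of unchanged values is therefore no measure of robustness. The sign changed for Pdhb in BAT with quantile normalization (0.40), spike-in scaling (0.32) and normexp with quantile normalization (0.49), and for Pdk3 (0.20) and Pdp1 (0.23) in gWAT with spike-in scaling. With the second probe, Pdp1 in gWAT was 0.12 and Pdp2 0.21. Between depots in KO, Pdk2 was 0.036 without the gWAT arrays with epididymis transcripts and Pdha1 was -0.0053 with Actb and Rplp0 scaling. The interaction of Pdp2 was -0.043 with quantile normalization and -0.028 with normexp. Spike-in scaling moved the median of all genes to 0.44 in BAT and 0.51 in gWAT, and Actb and Rplp0 scaling moved it to -0.67 in BAT. Members called in gWAT fell to 0 with slide as a fixed block, which leaves 1 WT array on the slide of the KO arrays, and to 0 without the gWAT arrays with epididymis transcripts, which leaves 3 WT and 2 KO arrays. Leaving out 1 array gave 8 to 9 members called in BAT, 4 to 6 in gWAT, 9 to 10 between depots in WT, 4 to 6 in KO and 9 to 10 for the interaction. The correlation of same-numbered arrays' deviations ran from -0.19 to 0.43. It was not over 0.1 for every pair in any comparison, though for 3 of 4 pairs between depots in WT and in KO. These values do not settle whether same-numbered arrays came from the same mouse, and the main fits treated the samples as unpaired. With the replicate block 9 members were called in BAT, 4 in gWAT (Dld and Pdk4 lost), 10 between depots in WT, 4 in KO and 9 for the interaction, also 9 by animal. Genes called over the whole gWAT table went from 2525 to 1087 with the replicate block, 184 with slide fixed, 1618 with the study's t-test, 1384 with median centring, 1138 with no filter, 224 without the gWAT arrays with epididymis transcripts, 5385 with spike-in scaling and 4040 with 16 arrays in 1 fit. Those between depots in KO went from 6664 to 4432 with spike-in scaling and 3692 without the epididymis arrays, and those for the interaction from 7162 to 3265 with slide fixed. Slide could not be fitted between depots in KO, and the t-test was not run for the interaction.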
